A study of Homo sapiens with 10 samples.

Results

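The genes described here code for the contents of the beta cell secretory granule and for the enzymes that mature them: insulin (INS), islet amyloid polypeptide (IAPP, amylin), the granins CHGA, CHGB, SCG2, SCG3 and SCG5, the prohormone convertases PCSK1 and PCSK2, and carboxypeptidase E (CPE). They were chosen by name and matched by Ensembl ID, which gave 10 of the 26346 genes and 48 of the 155130 transcripts in the deposited files, and all 10 passed the filter of a mean of at least 0.5 RPKM (reads per kilobase of transcript, scaled to the mapped reads of the library). Polyadenylated RNA was sequenced from EndoC-βH1, a human insulin-producing line derived from fetal pancreas. In one group, 5 preparations were exposed to an siRNA (siSR#2) that targets SRp55, a splicing factor whose gene is SRSF6. In the other group, 5 preparations received a control siRNA (siCTL). Both groups were the same cell line on the same matrigel and fibronectin coating, so the values describe 1 line, and the time after transfection and the glucose level are not in the labels used here.

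Insulin is made as preproinsulin, which loses its signal peptide in the endoplasmic reticulum and folds into proinsulin. In the maturing granule the convertases cut proinsulin and pro-IAPP after pairs of basic residues, and CPE trims the basic residues that remain. Granins are acidic, calcium-binding proteins that aggregate with hormones and help granules to form, and several are themselves cut into peptides.

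The cuts are written in the coding sequence. Basic pairs of the hormone precursors (in capitals, 12 bases on either side, 5′ to 3′, from the GENCODE 44 transcripts INS-201 and IAPP-201) are shown because pairs of this kind are what the convertases measured below recognise. Not every pair of IAPP is shown. In INS the pair at codons 55 and 56 joins the B chain to C-peptide, and that at codons 88 and 89 joins C-peptide to the A chain. In IAPP the pair at codons 72 and 73 follows the mature hormone, and the pair at codons 80 and 81 lies in the C-terminal flanking peptide.
INS codons 55 and 56: acacccaagaccCGCCGGgaggcagaggac
INS codons 88 and 89: gggtccctgcagAAGCGTggcattgtggaa
IAPP codons 72 and 73: aatacatatggcAAGAGGaatgcagtagag
IAPP codons 80 and 81: gtagaggttttaAAGAGAgagccactgaat
INS-201 holds 2 such pairs in 110 codons. The main coding transcripts of the granins hold between 4 (SCG5, 212 codons) and 16 (CHGB, 677 codons), CHGA among them with 10 in 457 codons. A basic pair in the sequence is not by itself a site of cleavage.

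Assigned reads ranged from 94.7 to 189.8 M (M is 10 to the power 6) in the SRp55 siRNA libraries and from 61.9 to 159.2 M in the control siRNA libraries. The siRNA target SRSF6 averaged 24.9 ± 3.78 RPKM in SRp55 siRNA cells and 98.2 ± 3.24 RPKM in control cells (SD, n = 5 each), 4.22-fold lower (limma, adjusted p = 2.0e-05). Fold changes are SRp55 siRNA over control siRNA and relative to the median tested gene, which itself lay 0.11 higher on the log2 scale as deposited. The limma p-values of genes, and so the calls, test the fold change before that shift, not the relative value printed beside them. The labelled cell type was checked against its markers. INS ranked 2 among 13630 tested genes by mean RPKM, the glucagon gene GCG averaged 0.21 RPKM in SRp55 siRNA cells and 0.113 RPKM in control cells, and PPY, PRSS1, CELA3A and VIM were listed at 0. All 9 beta cell markers, INS and IAPP among them, were tested, and 1 rose, 1 fell and 7 did not pass, with a median of -0.44 on the log2 scale. With the replicate number as a block 1 rose and 4 fell (IAPP, PDX1, NKX6-1 and UCN3), and on summed reads 1 rose and 4 fell (IAPP, PDX1, NKX2-2 and UCN3). Over all tested genes, 5.02% were called without the block, 13.1% with it and 17.2% on summed reads. SST and TTR, genes of other islet cells, were present in both groups, with SST at 41.6 to 189.1 RPKM in SRp55 siRNA libraries and 53.2 to 240.3 RPKM in control libraries. Summed over the 5 tested genes of that marker list, the level was 1480 to 2970 RPKM in SRp55 siRNA libraries and 1203 to 2757 RPKM in control libraries. Most of that sum was TTR alone, at 1425 to 2761 RPKM in SRp55 siRNA libraries and 1119 to 2524 RPKM in control libraries. The 2 tested acinar and duct markers summed to 41.5 to 97.4 RPKM in SRp55 siRNA libraries and 36.3 to 53.5 RPKM in control libraries, and no gene of these lists passed. The 2 tested mesenchymal, endothelial and immune markers summed to 31.1 to 52.2 RPKM in SRp55 siRNA libraries and 34.3 to 50.9 RPKM in control libraries. The part of other cell types in the results below was not tested. The preparations are described as independent, and the p-values measure the spread between preparations of this line. Libraries of equal replicate number varied together across the groups, and the fit without the block counts that shared variation as spread.

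Together the 10 genes took 3.47 ± 0.391% of assigned reads in SRp55 siRNA cells and 3.20 ± 0.276% in control cells (SD, n = 5 each). Most of that was CHGA, with 2.25 ± 0.43% of assigned reads in SRp55 siRNA cells and 2.03 ± 0.226% in control cells. Insulin took 0.535 ± 0.0701% of assigned reads in SRp55 siRNA cells and 0.384 ± 0.165% in control cells. Per length, CHGA was the highest gene of all those tested, CPE ranked 15, PCSK2 137, SCG3 189, CHGB 206, SCG5 278, SCG2 298, PCSK1 735 and IAPP 3922. The order CHGA, INS, CPE, PCSK2, SCG3, CHGB, SCG5, SCG2, PCSK1, IAPP by mean RPKM was the same in both groups. In both groups CHGA overlapped INS, PCSK2 overlapped SCG3, SCG3 overlapped CHGB and SCG5 overlapped SCG2 in their ranges over libraries. Within libraries PCSK2 was above SCG3 in 5 of 5 of each group. CHGA was above INS in 5 of 5 SRp55 siRNA libraries and 4 of 5 control libraries. SCG3 was above CHGB in 5 of 5 SRp55 siRNA libraries and 3 of 5 control libraries. SCG5 was above SCG2 in 2 of 5 SRp55 siRNA libraries and 4 of 5 control libraries. CHGB and SCG5 overlapped in SRp55 siRNA cells but not in control cells. The steps from INS down to CPE, from CPE to PCSK2, from SCG2 to PCSK1 and from PCSK1 to IAPP had no overlapping libraries in either group.

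**Figure D1:**
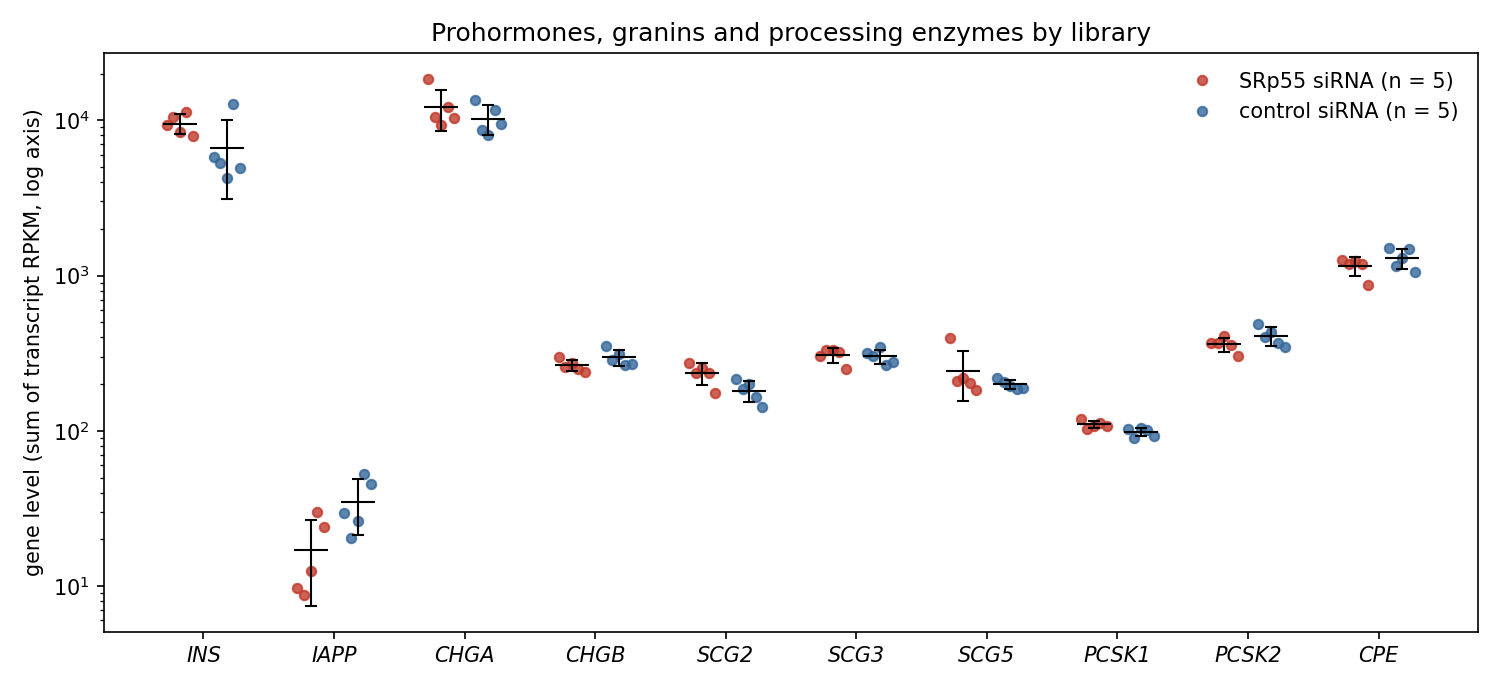
Gene level of each of the 10 genes (sum of transcript RPKM, log axis) in every library, SRp55 siRNA in red at the left and control siRNA in blue at the right of each gene, replicates 1 to 5 from left to right, with bars for the mean ± SD. INS has a single high control library at 12705 RPKM, and IAPP is the lowest gene in both groups.

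None of the 10 genes passed the threshold at gene level (limma on log2(RPKM + 0.5), adjusted p under 0.05 over all 13630 tested genes), where 684 genes, 5.02% of those tested, did (513 higher, 3.76%, and 171 lower, 1.25%). With libraries rescaled by the median of ratios the calls over all genes split into 433 higher and 500 lower, and again none of the 10 passed. At an unadjusted p under 0.05 there were 3 of the 10 (INS, IAPP and SCG2) and 2986 of all tested genes. No gene of the 10 had SRp55 siRNA and control libraries without overlap in RPKM, against 7.92% of all tested genes. A set of 5 genes lay above the median tested gene and 5 below, with a median of -0.02 on the log2 scale.

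Insulin was measured at 9380, 10519, 8440, 11334 and 7930 RPKM in SRp55 siRNA replicates 1 to 5, against 5839, 5296, 4237, 12705 and 4909 RPKM in control replicates 1 to 5. Every SRp55 siRNA library lay above 4 of the 5 control libraries, and control replicate 4 lay above them all. The means were 9520 ± 1414 RPKM in SRp55 siRNA cells and 6597 ± 3464 RPKM in control cells (SD, n = 5 each), a log2 fold change of 0.53 (SE 0.27, limma, adjusted p = 0.20), higher in 4 of 5 pairs of equal replicate number. Without control replicate 4 the log2 fold change was 0.75 and passed (limma, adjusted p = 0.0095), beside 7.96% of 13610 genes called in that fit. Leaving out any other library gave no call, and over all 17 alternatives the adjusted p ran from 0.0095 to 0.37 (limma). In these bulk samples fewer or more insulin-rich cells and a different amount of insulin RNA per cell cannot be told apart.

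The INS gene lies on chromosome 11 (2181009 to 2182571, minus strand, GRCh37) inside the readthrough gene INS-IGF2 on the same strand, so reads could be split between them. INS-IGF2 was listed at 1.96, 1.94, 2.41, 1.28 and 1.22 RPKM in SRp55 siRNA replicates 1 to 5, against 2.66, 1.74, 1.16, 41.1 and 7.50 RPKM in control replicates 1 to 5. The control library with the highest insulin thus also had the highest readthrough level, at under 1% of its INS level, and whether the same fact lies behind both was not tested.

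IAPP, the amyloid-forming hormone secreted with insulin, was lower in every pair. It was measured at 9.65, 8.76, 12.5, 30.1 and 24.1 RPKM in SRp55 siRNA replicates 1 to 5, against 29.7, 20.3, 26.2, 52.9 and 45.3 RPKM in control replicates 1 to 5. Replicates 4 and 5 were the highest in both groups, so the groups overlapped although the SRp55 siRNA library held 0.325 to 0.569 times the level of the control library of the same number. The means were 17.0 ± 9.52 RPKM in SRp55 siRNA cells and 34.9 ± 13.7 RPKM in control cells (SD, n = 5 each), a log2 fold change of -1.20 (SE 0.37, 2.3-fold lower, limma, adjusted p = 0.12). With the replicate number as a block the same change passed (limma, adjusted p = 0.010), in a fit that called 13.1% of all genes. On summed reads in place of RPKM it was -0.89 and passed (limma, adjusted p = 0.028), where 17.2% of all genes were called. IAPP lies on chromosome 12 (21507893 to 21532912, plus strand, GRCh37). SLCO1A2 overlaps it on the other strand and averaged 0.156 RPKM in SRp55 siRNA cells and 0.0971 RPKM in control cells.

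The hormones are driven by beta cell promoters that hold A boxes (TAAT, bound by PDX1 and related homeodomain factors) and, in INS, an E box (CATCTG, bound by NEUROD1 with E proteins). The 250 bases before the RefSeq start sites (GRCh38.p14) are shown because INS and IAPP had the largest differences of the 10 genes, in opposite directions. For IAPP the window of 1 of its 2 listed start sites is shown. TAAT or its complement ATTA and CATCTG are in capitals, matched on both strands. Neighbouring TAAT and ATTA matches in IAPP overlap.
INS, chr11:2161210-2161459, minus strand: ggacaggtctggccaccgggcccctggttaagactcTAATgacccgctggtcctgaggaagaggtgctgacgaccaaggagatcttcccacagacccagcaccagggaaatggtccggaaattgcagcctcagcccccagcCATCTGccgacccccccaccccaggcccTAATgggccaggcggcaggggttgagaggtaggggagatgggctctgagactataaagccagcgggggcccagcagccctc
IAPP, chr12:21372652-21372901, plus strand: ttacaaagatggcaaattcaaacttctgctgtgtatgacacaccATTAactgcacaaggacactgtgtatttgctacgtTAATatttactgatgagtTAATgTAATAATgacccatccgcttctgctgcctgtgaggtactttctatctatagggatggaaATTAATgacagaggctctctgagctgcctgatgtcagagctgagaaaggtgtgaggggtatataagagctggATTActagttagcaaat
The IAPP window shown held 8 TAAT matches, overlaps counted, and no CATCTG. The window before the other listed IAPP start site, which lies upstream, held 2 TAAT matches and no CATCTG. The INS window held 2 TAAT matches and 1 CATCTG match. Over 35116 RefSeq promoters, 47.4% held at least 1 TAAT and 12.2% at least 1 CATCTG in the same window, so a TAAT match is common. These shares do not say how many windows hold 8 matches. The cAMP response element TGACGTCA, found in 1.65% of promoters, had 1 match each upstream of CHGA and PCSK1, for PCSK1 at 1 of its 2 listed start sites. Of the 10 genes 8 had a promoter in the table.

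No granin passed on RPKM without the replicate block. Chromogranin A (CHGA, a granule matrix protein and precursor of several peptides) was measured at 18371, 10525, 9312, 12239 and 10302 RPKM in SRp55 siRNA replicates 1 to 5, against 13443, 8681, 8075, 11606 and 9466 RPKM in control replicates 1 to 5. It was higher in all 5 pairs, by 1.05 to 1.37 times, while the groups overlapped. On the log2 scale CHGA differed by 0.12 (limma, SE 0.22, adjusted p = 0.59), and by -0.00 without SRp55 siRNA replicate 1. Chromogranin B (CHGB), its close relative in the granule matrix, averaged 264.4 ± 22.9 RPKM in SRp55 siRNA cells and 297.0 ± 35.3 RPKM in control cells (SD, n = 5 each). It was lower in all 5 pairs, with a log2 fold change of -0.27 (SE 0.12, limma, adjusted p = 0.45).

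Secretogranin II (SCG2, the precursor of secretoneurin) was measured at 272.8, 236.0, 253.5, 237.4 and 174.8 RPKM in SRp55 siRNA replicates 1 to 5, against 214.3, 185.6, 201.0, 165.0 and 142.7 RPKM in control replicates 1 to 5. Within pairs the SRp55 siRNA library was 1.22 to 1.44 times the control library, and replicate 5 was the lowest of both groups. The log2 fold change of 0.26 (SE 0.15) did not pass (limma, adjusted p = 0.19) but passed with the replicate number as a block (limma, adjusted p = 0.025). Secretogranin III (SCG3), which binds chromogranin A and cholesterol-rich granule membrane, averaged 307.1 ± 33.4 RPKM in SRp55 siRNA cells and 302.1 ± 31.3 RPKM in control cells (SD, n = 5 each). On the log2 scale SCG3 differed by -0.09 (limma, SE 0.12, adjusted p = 0.94), with 2 pairs higher and 3 lower.

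SCG5, a small granin that acts as chaperone and inhibitor of PCSK2, was measured at 393.4, 208.8, 219.8, 203.5 and 183.7 RPKM in SRp55 siRNA replicates 1 to 5, against 218.4, 206.3, 195.0, 186.9 and 189.5 RPKM in control replicates 1 to 5. SRp55 siRNA replicate 1 stood apart, and the other 9 libraries lay between 183.7 and 219.8 RPKM. On the log2 scale SCG5 differed by 0.11 (limma, SE 0.19, adjusted p = 0.53), and by -0.04 without that library. The same library had the highest CHGA, and the highest share of assigned reads in the RPKM total (96.5%, against 76.8 to 90.4% in the other SRp55 siRNA libraries), and the part of that share in the SCG5 value was not tested.

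No processing enzyme passed on RPKM, while PCSK2 and CPE passed on summed reads. PCSK1, the convertase best known for the cut between B chain and C-peptide, averaged 110.0 ± 6.35 RPKM in SRp55 siRNA cells and 98.4 ± 6.49 RPKM in control cells (SD, n = 5 each). It was higher in all 5 pairs by 1.03 to 1.16 times. The log2 fold change was 0.16 as deposited (SE 0.10, limma, adjusted p = 0.37) and 0.05 relative to the median gene. PCSK2, the convertase best known for the cut between C-peptide and A chain, was measured at 369.6, 366.6, 407.2, 358.8 and 301.8 RPKM in SRp55 siRNA replicates 1 to 5. In control replicates 1 to 5 it was measured at 489.2, 403.6, 434.9, 369.8 and 344.4 RPKM. It was lower in all 5 pairs, with overlapping groups and a log2 fold change of -0.28 (SE 0.13, limma, adjusted p = 0.48). On summed reads the PCSK2 change was -0.31 and passed (limma, adjusted p = 0.027).

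CPE, the carboxypeptidase that follows the convertases, was measured at 1265, 1194, 1243, 1195 and 872.6 RPKM in SRp55 siRNA replicates 1 to 5, against 1495, 1156, 1301, 1472 and 1050 RPKM in control replicates 1 to 5. It was lower in 4 of 5 pairs, and replicate 5 was the lowest of both groups. On the log2 scale CPE differed by -0.27 (limma, SE 0.15, adjusted p = 0.57), and by -0.34 on summed reads, where it passed (limma, adjusted p = 0.0073). IAPP, PCSK2 and CPE were thus the 3 of the 10 called on summed reads, where 17.2% of all tested genes were called. The 5 granins and PCSK1 were called in no alternative except SCG2 with the block, in a fit that called 13.1% of all tested genes.

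**Figure D2:**
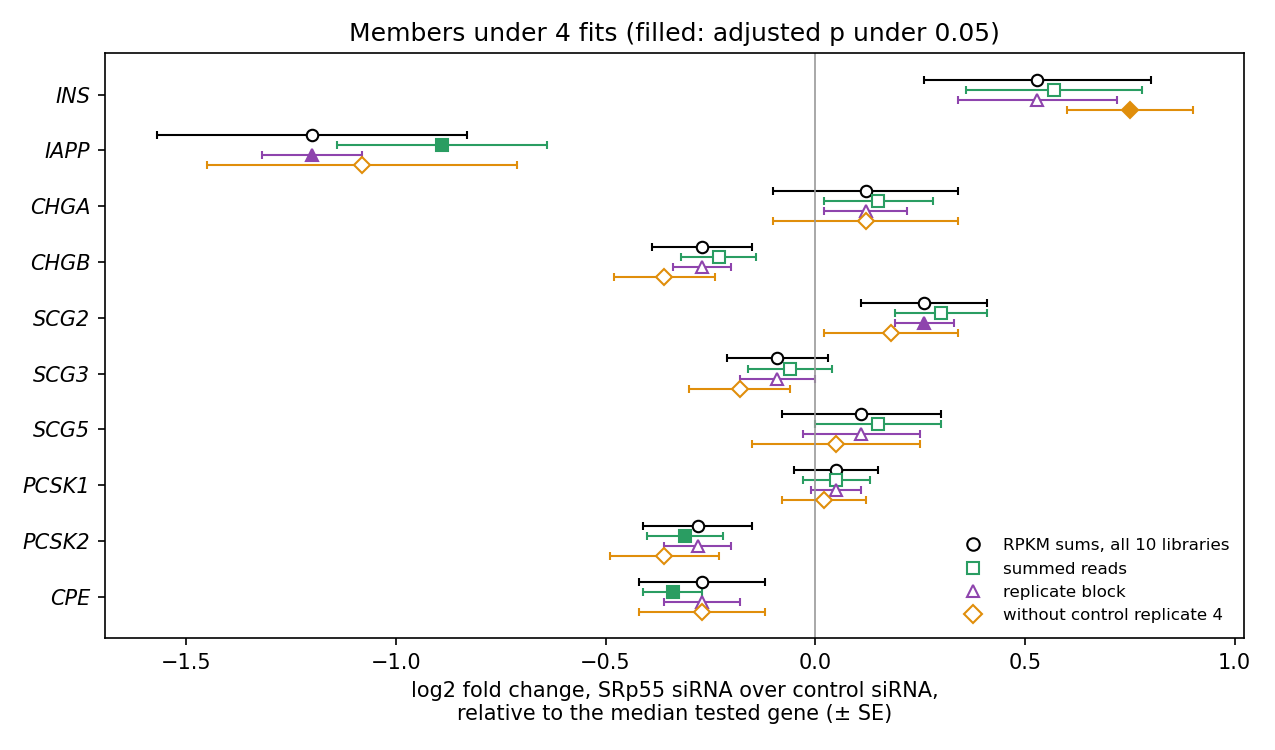
Log2 fold change of each gene, SRp55 siRNA over control siRNA and relative to the median tested gene, ± SE, under 4 fits. Filled symbols passed an adjusted p of 0.05: IAPP and SCG2 with the replicate block, IAPP, PCSK2 and CPE on summed reads, and INS without control replicate 4 (0.75).

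Ratios of genes within a library do not depend on how that library was scaled, and 14 were compared by an exact two-sided permutation test over the 252 splits of 10 libraries, with p-values adjusted over the 14. None passed. The smallest p these groups can give is 0.00794, and that p reached by a single ratio is 0.11 after adjustment, so 1 ratio alone could not pass. All 9 ratios over INS had a lower mean in SRp55 siRNA cells, and since they share the INS value they are not independent of each other.

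IAPP over INS had the largest difference. Per 1000 RPKM of INS, IAPP stood at 1.03, 0.833, 1.48, 2.65 and 3.03 RPKM in SRp55 siRNA replicates 1 to 5, against 5.09, 3.84, 6.19, 4.16 and 9.22 RPKM in control replicates 1 to 5. It was the only ratio of the 14 without overlap between the groups, 3.40-fold lower in SRp55 siRNA cells (log2 difference -1.76, SE 0.43, exact permutation p = 0.00794, adjusted p = 0.11) and lower in 5 of 5 pairs. Control replicate 4, the library with the high insulin, also lay above all 5 SRp55 siRNA libraries. In reads, IAPP had 3.53, 2.73, 4.62, 5.94 and 6.70 reads per 1000 INS reads in SRp55 siRNA replicates 1 to 5, against 12.4, 9.35, 15.2, 7.63 and 21.8 in control replicates 1 to 5. That difference was -1.47 on the log2 scale and passed (exact permutation, adjusted p = 0.037).

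CPE per 1000 RPKM of INS was 134.9, 113.5, 147.3, 105.4 and 110.0 RPKM in SRp55 siRNA replicates 1 to 5, against 256.1, 218.4, 307.1, 115.9 and 214.0 RPKM in control replicates 1 to 5. The groups met only through control replicate 4. The difference was -0.80 (SE 0.25, exact permutation p = 0.0238, adjusted p = 0.11). Control replicate 4 had the lowest value of all 10 libraries for CHGB per 1000 RPKM of INS (22.1 to 32.3 RPKM in SRp55 siRNA libraries, 21.0 to 73.8 RPKM in control libraries, log2 difference -0.80, exact permutation p = 0.0476, adjusted p = 0.11). The same held for PCSK2 per 1000 RPKM of INS, at 31.7 to 48.2 RPKM in SRp55 siRNA libraries and 29.1 to 102.6 RPKM in control libraries (log2 difference -0.81, exact permutation p = 0.0476, adjusted p = 0.11). Without control replicate 4, 7 of the 14 ratios passed: IAPP, CHGB, SCG3, PCSK1, PCSK2 and CPE over INS, with log2 differences from -0.73 to -1.86, and PCSK2 over PCSK1 (exact permutation, adjusted p from 0.022 to 0.048). The other ratios over INS, of CHGA, SCG2 and SCG5, differed by -0.63, -0.57 and -0.70 without that library and by -0.41, -0.27 and -0.42 with all 10, and did not pass in either.

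PCSK2 over PCSK1, the balance of the convertases, was 3.10, 3.58, 3.78, 3.18 and 2.80 in RPKM in SRp55 siRNA replicates 1 to 5, against 4.76, 4.48, 4.15, 3.64 and 3.70 in control replicates 1 to 5. It was lower in 5 of 5 pairs, and the groups overlapped by SRp55 siRNA replicate 3 (log2 difference -0.33, SE 0.11, exact permutation p = 0.0317, adjusted p = 0.11). In reads the ratio was 1.72 to 2.19 in SRp55 siRNA libraries and 2.22 to 2.97 in control libraries, and passed (log2 difference -0.36, exact permutation, adjusted p = 0.037). SCG5 over PCSK2, chaperone over enzyme, was 1.06, 0.569, 0.540, 0.567 and 0.609 in SRp55 siRNA replicates 1 to 5, against 0.446, 0.511, 0.448, 0.505 and 0.550 in control replicates 1 to 5. It was higher in 5 of 5 pairs, and replicate 1 gave the widest gap (log2 difference 0.40, SE 0.19, exact permutation p = 0.0159, adjusted p = 0.11). Without SRp55 siRNA replicate 1 the log2 difference was 0.22 (exact permutation, adjusted p = 0.11). In reads that ratio was 0.416 in SRp55 siRNA replicate 1, 0.236 to 0.254 in replicates 2 to 5 and 0.178 to 0.222 in control libraries. With all 10 libraries it passed in reads (log2 difference 0.45, exact permutation, adjusted p = 0.037). Among the granins, CHGB over CHGA was lower in 5 of 5 pairs (log2 difference -0.39, exact permutation p = 0.0794, adjusted p = 0.16), while SCG2 over CHGA (0.14) and SCG3 over CHGA (-0.20) each had at least 1 pair against the mean.

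**Figure D3:**
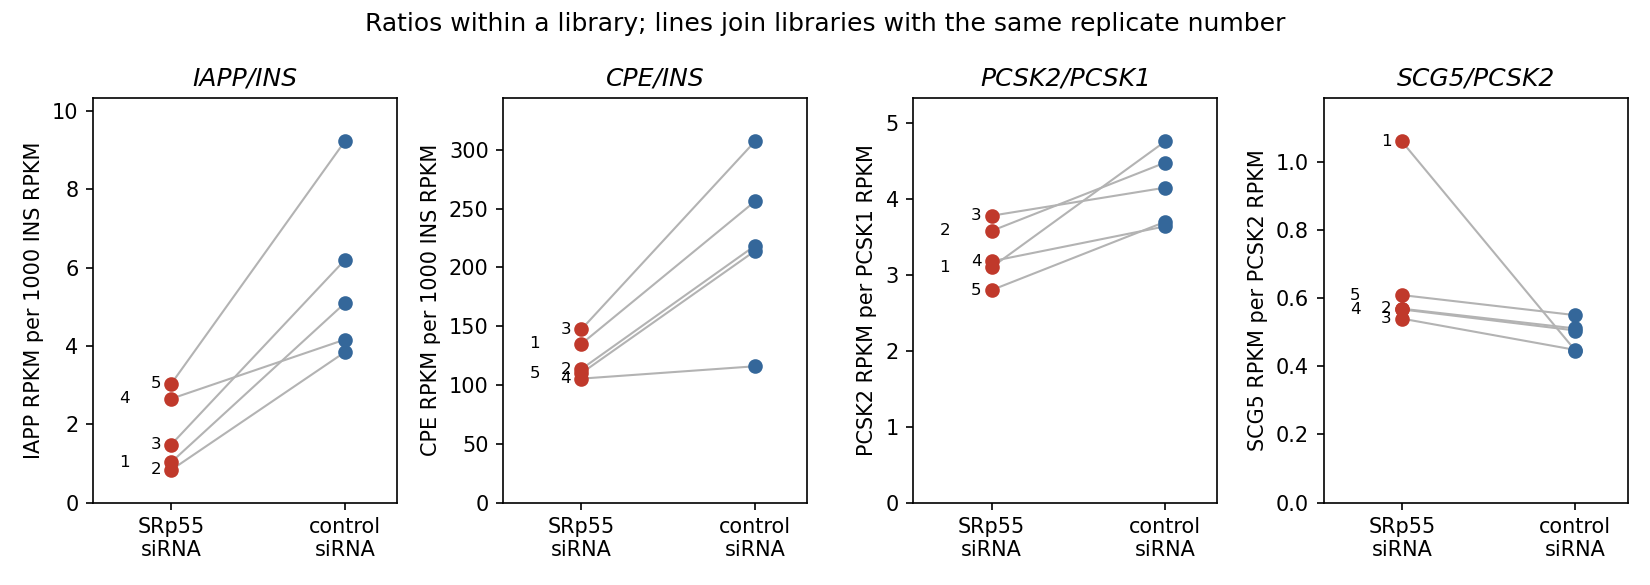
Within-library ratios of RPKM, SRp55 siRNA at the left and control siRNA at the right of each panel, with lines joining libraries of equal replicate number, given beside the red points. IAPP per 1000 INS lies at 0.833 to 3.03 in SRp55 siRNA libraries and 3.84 to 9.22 in control libraries, and in the other panels the groups overlap.

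Transcript usage, the share of a gene's RPKM carried by each annotated transcript, could be tested in 8 of the 10 genes and no call was made (limma diffSplice, calls needing an adjusted p under 0.05 and some transcript that moved by 10 percentage points or more). Over all genes 34 of 9915, 0.343%, were called. CHGB-201 and SCG2-201 carried nearly all of their genes, with 99.5% and 99.8% in SRp55 siRNA cells and 99.6% and 99.9% in control cells, and had no second transcript to test.

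In INS, the coding transcript INS-201 carried 86.3 ± 4.51% in SRp55 siRNA cells and 88.6 ± 4.43% in control cells (SD, n = 5 each), and the short INS-205 9.63 ± 3.72% in SRp55 siRNA cells and 8.49 ± 3.95% in control cells (limma, adjusted p = 1.00 for the gene). INS-203, which keeps the first intron of INS-201 (153 bases, chromosome 11, 2160989 to 2161141, GRCh38), carried 3.98 ± 0.871% in SRp55 siRNA cells and 2.80 ± 0.729% in control cells. That transcript falls under the limit of 5% and was chosen after its values were seen. It was higher in 5 of 5 pairs, with overlapping groups.

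IAPP had the widest shift of the 10 genes. IAPP-201 carried 35.5 to 74.3% in SRp55 siRNA libraries (mean 56.6 ± 19.4%) and 25.5 to 51.3% in control libraries (mean 42.5 ± 9.93%), a difference of 14.1 percentage points (limma, adjusted p = 0.94 for the gene). IAPP-202 was listed at 0 in SRp55 siRNA replicates 1 to 3 and carried at most 27.1% in that group, against 8.62 to 31.2% in control libraries. IAPP-204, which starts upstream of IAPP-201, carried 24.4 ± 5.87% in SRp55 siRNA cells and 34.0 ± 4.76% in control cells and was lower in 5 of 5 pairs. In reads rather than RPKM, IAPP-201 held 77.6% in SRp55 siRNA cells and 72.9% in control cells. IAPP-201 is 1958 bases long and IAPP-202 and IAPP-204 are 460 and 409 bases, so a gene sum in RPKM gives the short transcripts more weight than a sum of reads.

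CHGA was split in the same way in both groups: CHGA-201 carried 56.5 ± 10.2% in SRp55 siRNA cells and 57.1 ± 12.4% in control cells (SD, n = 5 each; limma, adjusted p = 1.00 for the gene). CHGA-203, with no defined coding sequence, carried 24.7% in SRp55 siRNA cells and 24.8% in control cells. CHGA-202 skips exon 6 of 8, a run of 453 bases (chromosome 14, 92931250 to 92931702, GRCh38) that codes for 151 codons and keeps the frame. The junctions are shown because they are what tells these mRNAs apart, with the bases on either side of the joint in capitals and exons numbered as in CHGA-201.
CHGA-201, exon 5 to 6: aggccgagctgaaaGAggcggtggaagagc
CHGA-201, exon 6 to 7: tccggaaaggcgagAGtcggtcggaggctc
CHGA-202, exon 5 to 7: aggccgagctgaaaGGtcggtcggaggctc
CHGA-202 carried 4.78 to 31.3% in SRp55 siRNA libraries and 7.13 to 24.3% in control libraries, with means of 14.1 ± 10.7% in SRp55 siRNA cells and 14.7 ± 7.28% in control cells. The spread within each group was thus far wider than the 0.5 points between the means.

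PCSK1 had the smallest p of the 8 tested genes (limma diffSplice, unadjusted p = 0.0085, adjusted p = 0.32). It was the only 1 of the 8 with an unadjusted p under 0.05, beside 810 of all 9915 genes tested for usage. PCSK1-204, a transcript with no defined coding sequence, carried 5.58 to 13.3% in SRp55 siRNA libraries and 3.56 to 4.33% in control libraries, a shift of 4.2 percentage points. The groups did not overlap, and the transcript did not pass (limma diffSplice, adjusted p = 0.43). The share of all transcripts without overlap is not given here. The coding PCSK1-201 carried 88.3 ± 6.23% in SRp55 siRNA cells and 91.4 ± 3.10% in control cells. In PCSK2 the coding PCSK2-205 carried 61.2% in SRp55 siRNA cells and 59.1% in control cells, and PCSK2-201 carried 28.5% in SRp55 siRNA cells and 32.3% in control cells, lower in 5 of 5 pairs (limma, adjusted p = 1.00 for the gene). PCSK2-204, with no defined coding sequence, carried 9.41% in SRp55 siRNA cells and 7.67% in control cells. CPE-201, the full coding form, carried 64.0 ± 4.46% in SRp55 siRNA cells and 71.3 ± 7.76% in control cells, and the short CPE-204 carried 32.0 ± 4.12% in SRp55 siRNA cells and 25.7 ± 7.28% in control cells (limma, adjusted p = 0.84 for the gene). In SCG3 (SCG3-201 46.8% in SRp55 siRNA cells and 47.7% in control cells; SCG3-202 48.1% in SRp55 siRNA cells and 48.7% in control cells) and SCG5 (SCG5-201 42.1% in SRp55 siRNA cells and 42.4% in control cells; SCG5-202 45.2% in SRp55 siRNA cells and 46.7% in control cells; SCG5-207 8.56% in SRp55 siRNA cells and 7.11% in control cells) no mean moved by more than 1.5 points.

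**Figure D4:**
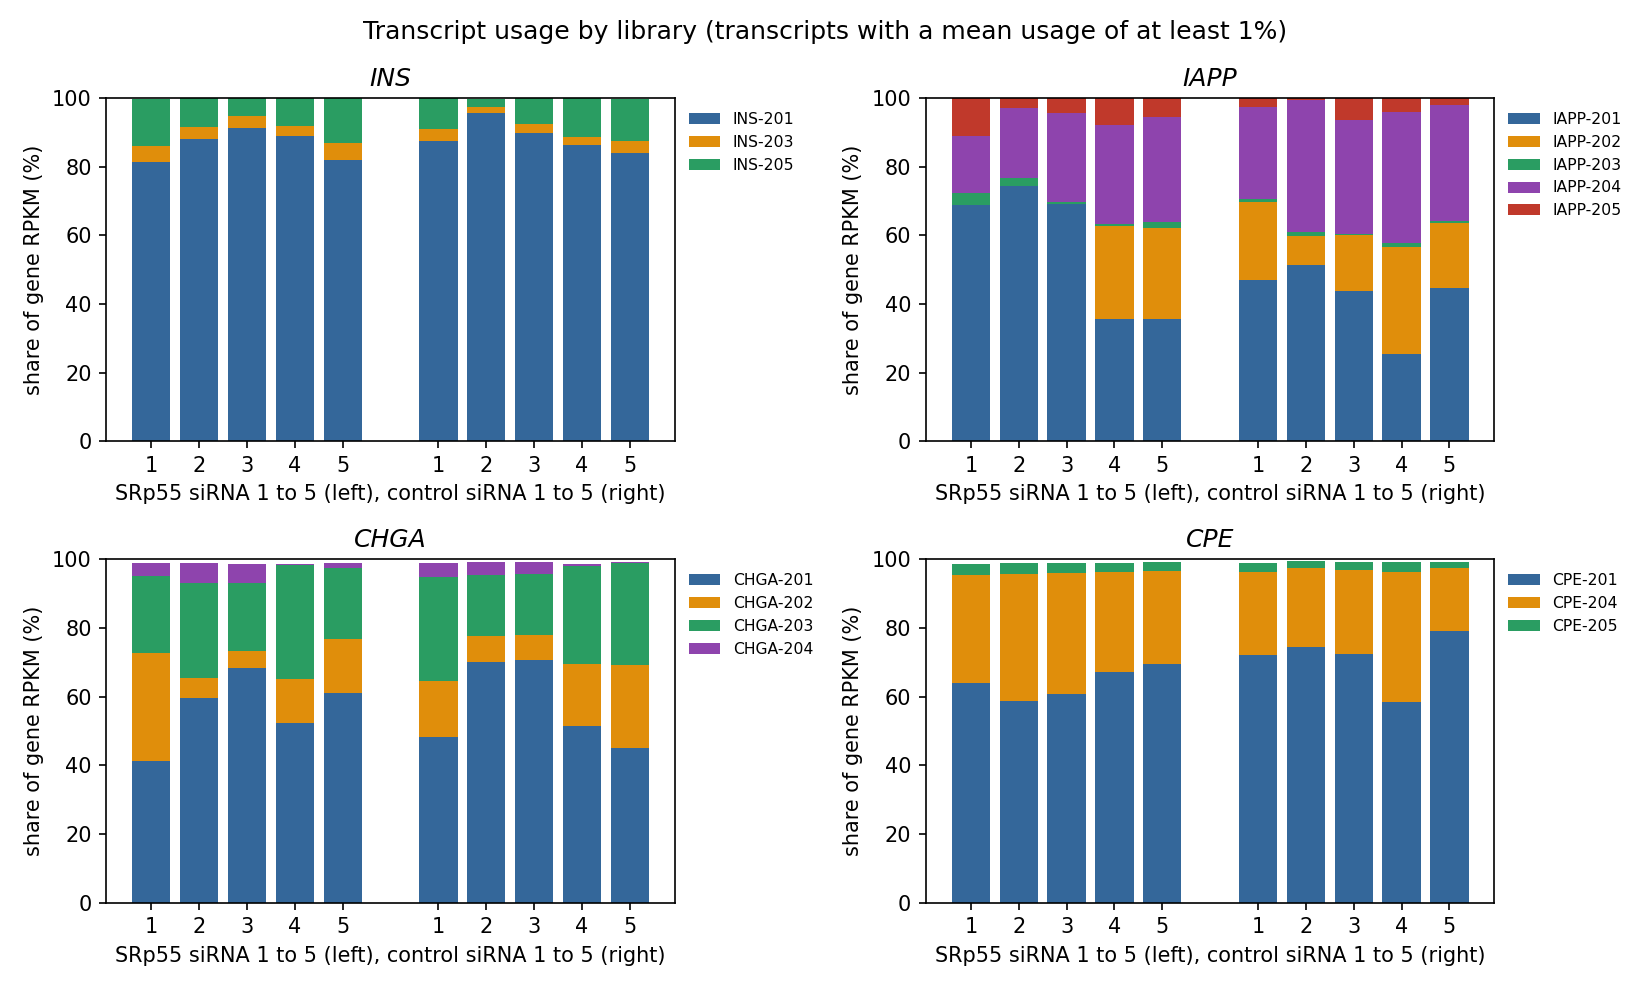
Share of the gene's RPKM carried by each transcript in every library, SRp55 siRNA replicates 1 to 5 at the left and control siRNA replicates 1 to 5 at the right, for INS, IAPP, CHGA and CPE. IAPP-202 is at 0 in SRp55 siRNA replicates 1 to 3, and CHGA-202 varies more within the groups than between them.

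Of 117 other genes of the same pathway, in 5 lists, 98 were tested, 2 rose and 2 fell (limma, adjusted p under 0.05), against 3.76% higher and 1.25% lower over all genes. With the replicate block, in the fit that called 13.1% of all genes, 12 rose and 6 fell, whereas on summed reads, which called 17.2% of all genes, 3 rose and 13 fell. The calls over all tested genes changed direction in the same way, with 1280 higher and 504 lower with the block (71.7% higher). On summed reads they were 995 higher and 1345 lower (42.5% higher). Among the other convertases and genes listed with peptide processing, not all of them enzymes, 1 of 19 tested fell, none rose, and the median was -0.09 on the log2 scale. It was RNPEP, an aminopeptidase that removes basic residues, at 21.0 ± 2.38 RPKM in SRp55 siRNA cells and 30.9 ± 1.82 RPKM in control cells (log2 fold change -0.66, limma, adjusted p = 0.015), lower in 5 of 5 pairs and without overlap. Among other granule cargo and peptide hormones, 12 of the 25 listed were tested, with a median of 0.19. Neuropeptide Y (NPY), a peptide of neurons and of immature beta cells, rose to 10.3 ± 3.31 RPKM in SRp55 siRNA cells, against 4.01 ± 1.94 RPKM in control cells (log2 fold change 1.21, limma, adjusted p = 0.030). Urocortin 3 (UCN3), a marker of mature beta cells, fell to 12.5 ± 1.86 RPKM in SRp55 siRNA cells, against 19.7 ± 2.61 RPKM in control cells (log2 fold change -0.74, limma, adjusted p = 0.022). The NPY call was lost when any of 7 libraries was left out and the UCN3 call when any of 3 was, with adjusted p of at most 0.076 (limma), while their groups of RPKM values did not overlap.

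Among granule biogenesis and membrane genes, 1 of 27 tested rose, none fell, and the median was 0.03. It was SLC30A8, the zinc transporter that loads the granule with the zinc of insulin crystals, at 171.6 ± 24.6 RPKM in SRp55 siRNA cells and 77.3 ± 11.4 RPKM in control cells (log2 fold change 1.04, SE 0.14, limma, adjusted p = 0.0025). None of the 26 genes of preproinsulin entry and folding passed (median 0.04), and none of 14 regulators of the insulin gene passed (median 0.10). With the block 2 of these folding genes rose and 1 fell, against 0 that rose and 5 that fell on summed reads. Of the regulators, 3 rose and 2 fell with the block, against 0 that rose and 2 that fell on summed reads. The direction in which more of these genes were called thus depended on the fit, as it did over all tested genes.

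**Figure D5:**
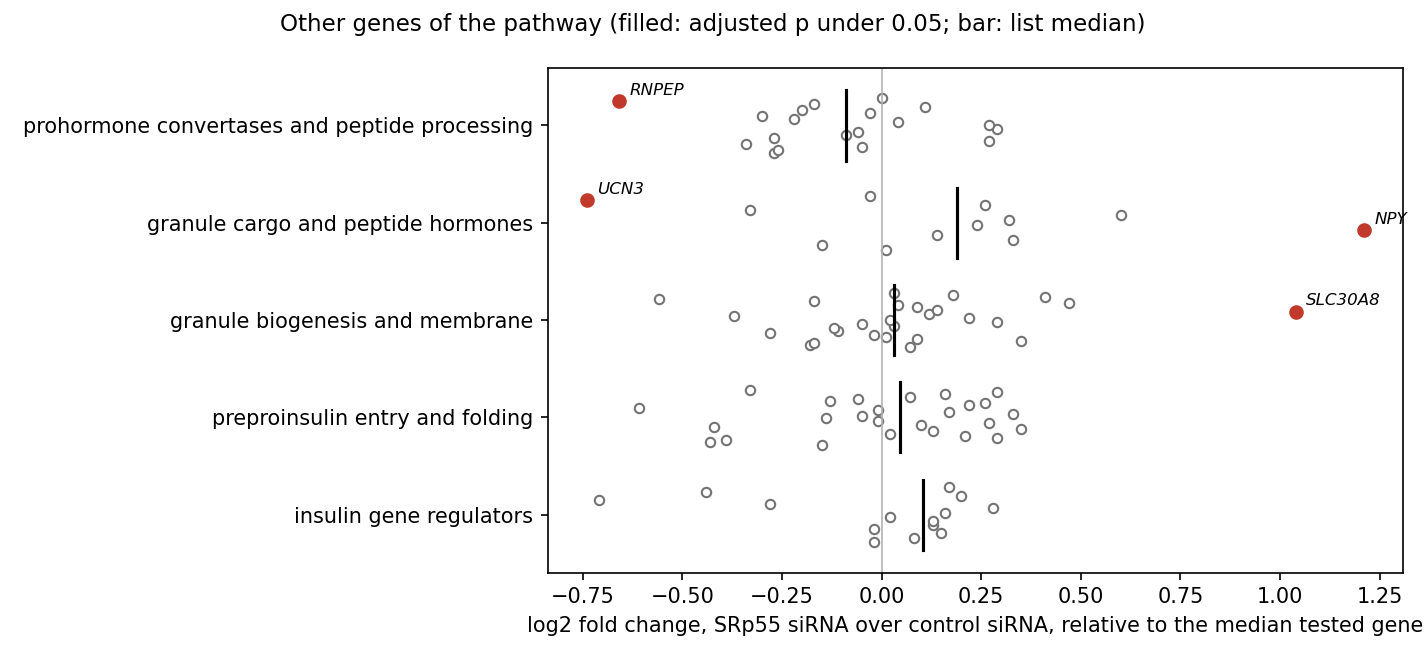
Log2 fold change of each tested gene of the 5 other lists, SRp55 siRNA over control siRNA and relative to the median tested gene, with a bar at each list's median. The 4 filled points passed an adjusted p of 0.05: RNPEP (-0.66), UCN3 (-0.74), NPY (1.21) and SLC30A8 (1.04).

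Over all 10 libraries, as deviations from the group means, the 5 genes whose level followed INS most closely were EMSY-DT, TRIM8, ZNF862 and WDR54 (Pearson r = 0.97 each) and MED15 (r = 0.96). The points share libraries, and the high control replicate 4 has a large part in them: over the 9 libraries without it the closest were ZNF862 and NDUFB4 (r = 0.96) and POMT2, RABL2A and GLT8D1 (r = 0.93), with ZNF862 in both lists. No granule gene was among them. CPE (r = 0.50), CHGA (r = 0.40) and IAPP (r = 0.36) were the closest of the other 9 over all libraries, and without control replicate 4 the values were 0.46 for CPE, 0.47 for CHGA and 0.01 for IAPP.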

How the data were processed

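Polyadenylated RNA of 5 SRp55 siRNA and 5 control siRNA preparations was sequenced on an Illumina HiSeq system, per the labels. TopHat and the GRCh37 (hg19) build are named in the submitters' processing notes; the quantifier is not given in the sources used here. In the deposited transcript files the authors wrote reads and RPKM into 1 text field per transcript, classed here as other. Because no column holds counts alone, the planned count test was replaced by limma 3.58.1 (R 4.3.3) on log2(RPKM + 0.5) of gene sums with trend and robust options, a mean of at least 0.5 RPKM, and Benjamini-Hochberg adjustment over all tested genes. Such fold changes understate those of low genes.

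Transcript usage was tested with diffSplice on transcripts of at least 5% mean usage, and ratios by exact permutation. Scripts were tested on simulated data. A further sequence of IAPP, and its count of basic pairs, are not reported here. Named genes are all 10, SRSF6, up to 3 called genes of each list and the 5 genes closest to INS. The members and lists were chosen with earlier results of these data known. Equal replicate numbers deviated together (r from 0.13 to 0.41, at most 0.12 between different numbers). By this measure 10 of 10 libraries were closest to their own number. Counts of pairs higher or lower use this pairing, and so do the alternatives with a block. The tests of genes, transcript usage and ratios did not use it otherwise. Amplified reads are not independent molecules, so the errors given are spreads between libraries. Alternatives were other scaling, pseudocounts and filters, summed reads, the block, and leaving out each library.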

Additional observations from a re-analysis of the deposited data

Results flagged for a closer look

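Among 48 groups of 5 values searched for a single library far from the others, 6 were singled out, and chance gives about 1 in 20. INS reached 12705 RPKM in control siRNA replicate 4, against 4237 to 5839 RPKM in the other control libraries. Through it the log2 ratio of CHGB over INS was -5.58 in that library (-4.22 to -3.76 in the others) and that of SCG5 over INS was -6.09 (-4.74 to -4.44 in the others). SCG5 stood at 393.4 RPKM in SRp55 siRNA replicate 1, against 183.7 to 219.8 RPKM in the other SRp55 siRNA libraries, and the log2 ratio of SCG5 over PCSK2 there was 0.09, against -0.89 to -0.72. PCSK1N, which codes for an inhibitor of PCSK1, and SCGN, a calcium sensor, were looked up after these values were seen: in the same library they stood at 1838 and 394.3 RPKM, against 505.2 to 722.1 and 176.3 to 198.2 RPKM in the other SRp55 siRNA libraries. CPE was low in SRp55 siRNA replicate 5, at 872.6 RPKM against 1194 to 1265 RPKM in the others, where the control library of the same number was also the lowest of its group.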

How the results depend on the processing

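Over all tested genes, 684 were called. The count was 1784 with the replicate block, 2340 on summed reads and 259 to 1083 when 1 library was left out, lowest without control replicate 2 and highest without control replicate 4. Among the 10 genes, 2 were called with the block (pairing by replicate number: IAPP and SCG2), 3 on summed reads (IAPP, PCSK2 and CPE), and 0 to 1 with 1 library left out (INS, without control replicate 4). Of the 14 ratios, 3 were called on summed reads and 0 to 7 with 1 library left out (7 without control replicate 4), and 0 with the 5 pairs as blocks, where the smallest exact p is 0.0625. Calls of transcript usage numbered 24 to 52 with 1 library left out, 52 each without control replicate 1 and without control replicate 4, and none of the 10 genes was called in any alternative. Other pseudocounts, filters and the median-of-ratios scaling kept the direction and the side of the threshold of every one of the 10 genes. The block changed no other call among the 10. With 1 library left out, the log2 fold change ran from -0.00 to 0.20 for CHGA and from -0.04 to 0.17 for SCG5, and both changed sign without SRp55 siRNA replicate 1. The causes were not tested. IAPP rested on the fewest reads, 1941 to 9398 a library, and the other 9 genes on 19742 or more.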

Other observations

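The fit with the replicate number as a block called 13.1% of all tested genes and changed the counts of each list. Genes of the pathway lists that passed with the block and not without it on RPKM are given here. Of these, PDX1, PDIA6 and TMEM163 also passed on summed reads without the block (limma, adjusted p = 0.0097, 0.0085 and 0.0021). Summed reads, which called 17.2% of all tested genes, gave further calls not made on RPKM with or without the block. Lower were MBTPS1, ATP6AP1, RAB3D, SEC63, TRAM1, ERO1A, ERO1B and NKX2-2, and SCGN was higher. Among the regulators of the insulin gene, PDX1, which binds A boxes, averaged 79.4 ± 6.49 RPKM in SRp55 siRNA cells and 99.8 ± 8.63 RPKM in control cells (SD, n = 5 each; limma, adjusted p = 0.028 with the block and 0.10 without). NKX6-1, a factor of beta cell identity, averaged 15.4 ± 4.76 RPKM in SRp55 siRNA cells and 23.5 ± 6.86 RPKM in control cells (limma, adjusted p = 0.0081 with the block and 0.20 without). NEUROD1, which binds the E box, was higher, at 81.9 ± 5.32 RPKM in SRp55 siRNA cells and 62.6 ± 5.43 RPKM in control cells (limma, adjusted p = 0.016 with the block and 0.052 without), and so were ISL1 and RFX6 (limma, adjusted p = 0.045 and 0.034 with the block).

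Among folding genes, the disulfide isomerase PDIA6 averaged 173.2 ± 15.3 RPKM in SRp55 siRNA cells and 214.8 ± 12.7 RPKM in control cells (limma, adjusted p = 0.041 with the block and 0.11 without), while PDIA4 and QSOX1 were higher (limma, adjusted p = 0.021 each with the block). PAM, which amidates peptides such as IAPP, averaged 188.2 ± 40.3 RPKM in SRp55 siRNA cells and 145.7 ± 39.3 RPKM in control cells (limma, adjusted p = 0.038 with the block and 0.30 without), and NUCB2, RBP4, SYT4 and BAIAP3 were also higher, with TMEM163 lower, by the same fit.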
